A study of Mus musculus with 12 samples.

Results

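The comparison was between whole uninjured mouse skin with and without Nf1 loss, and used 6 of the 12 libraries of the series. Nf1-KO mice carried Prss56Cre, the R26tdTom reporter and the Nf1 genotype flox/- (n = 3 libraries), and controls carried Prss56Cre and R26tdTom (n = 3 libraries). Both groups were 3 months old and had the mixed strain C57BL/6 and B6D2. Libraries were assigned to groups by their labels. The other 6 libraries came from injured skin 14 days after injury, 3 of each genotype, and were used for a shared estimate of the spread and for a side-by-side comparison. Nothing in the labels states whether libraries of a group came from separate animals or pools, so p-values measure the spread between these libraries.

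Nf1 encodes neurofibromin, a RAS GTPase-activating protein that returns RAS to its inactive state. Its loss in the Schwann cell lineage is the event from which neurofibromas of nerve and skin arise, and injury is a known promoter of their growth in mice. Prss56 marks boundary cap cells of the embryonic nerve roots, whose descendants include Schwann cells and sensory neurons of the skin, and the Cre allele acts in that lineage. A floxed allele is therefore lost only in cells with a Cre history, whereas the null allele is missing from every cell of the mouse. The labels name no Nf1 allele in the controls, so loss of both copies in the lineage and loss of a single copy in all other cells cannot be told apart. In whole skin, Schwann cells are a small share of the RNA, and fewer cells of a type cannot be told apart from less RNA per cell.

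The 6 uninjured libraries held between 8817013 and 15521143 counts. Keratinocyte transcripts were abundant in all of them, and the summed raw level of 14 basal keratinocyte markers lay between 20130 and 25421 CPM, the counts of a gene scaled to a fixed library total. All 6 carried the Y-linked transcript Ddx3y, between 68.2 and 93.3 raw CPM, and Xist at 2.95 raw CPM or less. The share of counts on ribosomal RNA-like genes was 1.59%, 1.3% and 1.19% in controls and 2.18%, 1.87% and 3.01% in Nf1-KO. The share on mitochondrial genes was 1.71%, 1.64% and 1.61% in controls and 2.02%, 1.95% and 2.16% in Nf1-KO, so that both shares were higher in Nf1-KO with no overlap. Nf1-KO replicate 3 stood apart on the first principal component, which held 39.3% of the variance, and control replicate 3 on the second, with 27.8%.

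The level of Nf1 itself did not separate the groups. Its raw level was 17.2, 13.7 and 9.41 CPM in controls and 9.94, 11 and 8.96 CPM in Nf1-KO. The groups overlapped, and the 2-sided exact permutation test of log2 CPM gave p = 0.3, where 3 against 3 libraries cannot go below 0.1. The fitted log2 difference, Nf1-KO minus control, was -0.31 (SE 0.28, edgeR adjusted p = 0.861). It was -0.14 without control replicate 1 and -0.54 when each library's share of ribosomal RNA-like counts was a covariate, the ends of its range over the alternatives, and passed the threshold in none. Counts over the whole gene include transcripts with a deleted exon, and the files do not separate exons, so the value does not measure functional transcript. Prss56, whose promoter drives the Cre, was near the detection limit, with 9, 12 and 3 counts in controls and 3, 10 and 1 in Nf1-KO.

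Few single genes were called in the main fit, which shares its estimate of the spread with the injured libraries. The uninjured libraries alone gave 27 calls, as described below. Of 23635 genes tested with edgeR's quasi-likelihood test, 4 were called at an adjusted p under 0.05, which is 0.0169%. Of these, 3 rose in Nf1-KO skin (0.0127%) and 1 fell (0.00423%). The gene that rose with the smallest p was Glul, glutamine synthetase, which joins ammonia to glutamate. Mir8114 and the pseudogene Gm8210 also rose, and Slfn9, of the Schlafen family, fell. A total of 2007 genes had an unadjusted p under 0.05, 1349 higher and 658 lower. All 3 Nf1-KO libraries lay above all 3 controls for 2189 genes (9.26%) and below them for 1429 (6.05%), which is called higher or lower without overlap here, and these shares are the background for every list below. With median-of-ratios scaling the counts without overlap were 1755 and 1733, with upper-quartile scaling 1695 and 2098, and with total-count scaling 1588 and 2152, so the excess of higher genes depended on the scaling. Such counts grow when a library is left out, so the counts given below without a library have these backgrounds instead. Over all genes they were 3396 higher and 2932 lower without control replicate 1, and 2733 and 1950 without control replicate 2. Without control replicate 3 they were 3990 and 4816. Without Nf1-KO replicate 1 they were 2997 and 2359, without Nf1-KO replicate 2, 3706 and 2748, and without Nf1-KO replicate 3, 2790 and 2250. The median log2 difference of all genes was -0.04.

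**Figure D1:**
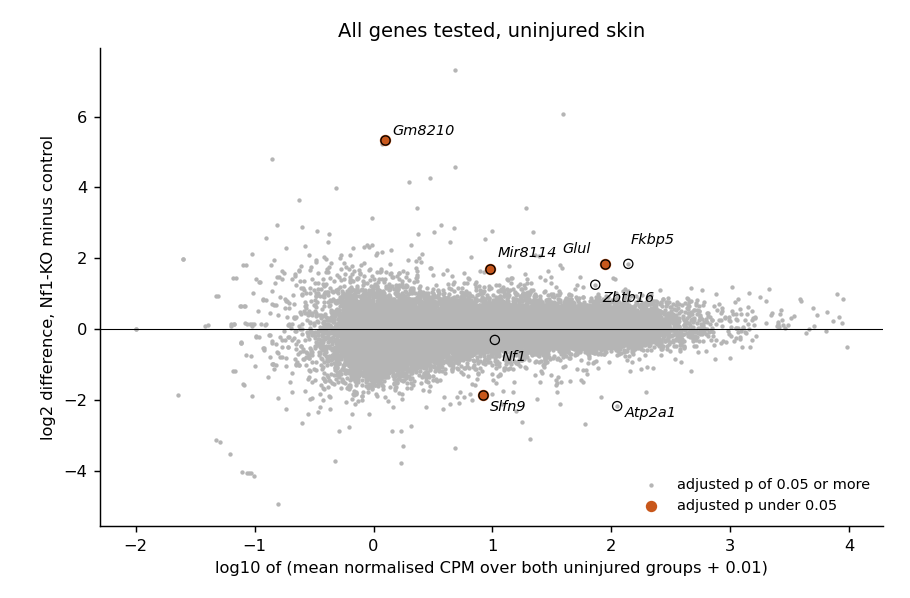
Each point is a gene tested in uninjured skin: the horizontal axis is log10 of the mean normalised CPM plus 0.01 over both groups, the vertical axis the log2 difference, Nf1-KO minus control. The 4 called genes are orange, Gm8210, Glul and Mir8114 above 0 and Slfn9 below; circled genes in grey are named in the text and were not called.

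Glul was at 39.4, 45.2 and 30.9 normalised CPM in controls and at 107, 129 and 180 in Nf1-KO. Every Nf1-KO library lay above every control library. The means were 38.5 ± 7.23 and 138 ± 37.3 normalised CPM (SD, n = 3), a log2 difference of 1.85 (SE 0.22, 95% interval 1.37 to 2.32, edgeR adjusted p = 0.00725). The call for Glul was lost without control replicate 1 or without control replicate 3, at log2 differences of 1.86 and 1.75. Glul lies on chromosome 1, from 153899944 to 153909723 on the plus strand of mm10.

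The start of Glul is shared by other genes, which bears on how its counts are read. The promoter below is the 250 bases before the RefSeq start of Glul (GRCm38.p6, chr1:153899679-153899928, plus strand), shown because the gene with the smallest p starts there. Capitals mark the letters CCAAT, searched on both strands, the core of the box bound by the factor NF-Y. They occur in the same window of 37.5% of 27025 genes with a promoter in the table. The mature miR-8114 (chr1:153899989-153900009, plus strand) is shown with its seed, bases 2 to 8, in capitals, and all 21 of its bases lie in the first exon of Glul.
Glul promoter: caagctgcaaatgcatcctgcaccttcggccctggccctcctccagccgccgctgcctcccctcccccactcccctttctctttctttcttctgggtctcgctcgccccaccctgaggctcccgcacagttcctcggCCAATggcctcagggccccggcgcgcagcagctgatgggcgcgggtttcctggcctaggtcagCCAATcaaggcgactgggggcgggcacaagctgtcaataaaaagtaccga
mmu-miR-8114: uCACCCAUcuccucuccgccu

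Mir8114, annotated as a miRNA hairpin from 153899926 to 153900036, was at 4.72, 4.67 and 4.15 normalised CPM in controls and at 11.1, 13.1 and 19.5 in Nf1-KO. Its log2 difference was 1.69 (SE 0.26, edgeR adjusted p = 0.0486), with no overlap, and the call was lost in 8 of 15 alternatives, among them the removal of any control, of Nf1-KO replicate 2 or of Nf1-KO replicate 3. Of its 111 bases, 93 are exonic in Glul and all 111 are exonic in Teddm2, which runs on the opposite strand. Glul and Teddm2 share 116 exonic bases, of 3323 in Glul and 4905 in Teddm2. Counts per gene do not show how many reads fell on them. Teddm2, named after its values were seen, was at 8.4, 8.14 and 6.41 normalised CPM in controls and at 16.3, 18.6 and 27.4 in Nf1-KO, and was not called (log2 1.44, edgeR adjusted p = 0.0516). The cDNA kit does not mark strand, and the library is not one for small RNA. Reads of Glul, Mir8114 and Teddm2 over the shared bases cannot be told apart, and the 3 genes are not 3 independent observations.

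Gm8210, outside the naming rule and named after its values were seen, is a processed pseudogene on chromosome 1 from 43189156 to 43189638. It was at 0.0944, 0.0754 and 0 normalised CPM in controls and at 1.51, 1.82 and 3.92 in Nf1-KO (edgeR adjusted p = 0.0166), and the call was lost without any single control. The raw data were 2 counts over the 3 controls against 86 over the 3 Nf1-KO libraries, a ratio of 45.4 with a 95% exact interval of 12.2 to 381 that covers counting error only. Its transcript aligned to that of Rpl29, a ribosomal protein gene, over 483 bases at 99.4% identity, and to the pseudogene Gm13841 at 100%, so the assignment of its reads is uncertain. Rpl29 was at 57.7, 57.5 and 65.5 normalised CPM in controls and at 38.6, 46.6 and 80.6 in Nf1-KO. In the injured libraries Gm8210 lay between 2.48 and 4.03 normalised CPM in both genotypes, so the 3 uninjured controls were the only libraries near 0.

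Slfn9 was at 11.9, 12.4 and 15 normalised CPM in controls and at 3.55, 3.95 and 3.31 in Nf1-KO. All Nf1-KO libraries lay well below all controls, and the log2 difference was -1.86 (SE 0.29, 95% interval -2.48 to -1.24, edgeR adjusted p = 0.0486). The call was lost in 9 of 15 alternatives, among them the removal of any of the 6 libraries, while log2 stayed between -2.05 and -1.71. Schlafen genes encode interferon-inducible proteins that act on lymphocyte quiescence and on transfer RNA. Of the 9 Schlafen genes tested, Slfn9 alone was called, 4 were lower without overlap, none was higher without overlap, and the median log2 difference was -0.79. The others without overlap were Slfn3 at -1.19, Slfn8 at -1.14 and Slfn10-ps at -0.85 (edgeR adjusted p between 0.597 and 0.807), all at few counts. Schlafen genes have near-identical copies, and the split of their reads is uncertain.

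The Schlafen cluster lies 3.40 Mb from Nf1 on chromosome 11 (Slfn9 from 82978390 to 82991830, Nf1 from 79339693 to 79581612). Within 5 Mb of Nf1, 204 genes were tested, 1 was called, 31 were higher without overlap (15.2%) and 15 lower (7.35%). Over all of chromosome 11 these shares were 12.6% and 5.11%, beside 9.26% and 6.05% of all genes, and the share of higher genes reached 13.9% on chromosome 19 and 13.8% on chromosome 17. AA465934, a processed transcript 3.71 Mb from Nf1 that was named after its values were seen, was at 3.68, 3.32 and 2.99 normalised CPM in controls and at 25.1, 27.3 and 53.3 in Nf1-KO. Its log2 difference was 3.41 (SE 0.79, edgeR adjusted p = 0.429), and 4.54 in injured skin, where the groups were also apart. The difference in uninjured skin passed the threshold in 2 of 15 alternatives. These were edgeR on the uninjured libraries alone (adjusted p = 3.79e-05) and DESeq2 (adjusted p = 0.0233).

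Most myelin transcripts overlapped between the groups. Of 20 myelin genes tested, edgeR and limma voom called none and DESeq2 called 1, and 4 had an unadjusted p under 0.05 and were higher. There were 2 of 20 higher without overlap, 10% beside 9.26% of all genes, and the median was 0.22. Without Nf1-KO replicate 3 there were 7 higher, and without Nf1-KO replicate 1 the median was -0.02. Pllp, plasmolipin, a membrane protein of compact myelin, was at 2.17, 2.86 and 2.44 normalised CPM in controls and at 5.24, 3.27 and 2.96 in Nf1-KO, with no overlap (log2 0.61, SE 0.41, edgeR adjusted p = 0.771). Mbp, myelin basic protein, was at 154, 162 and 140 in controls and at 209, 159 and 99.7 in Nf1-KO. Pmp22, a peripheral myelin membrane protein, was at 112, 83.2 and 95 against 148, 112 and 78.6. For Mbp and Pmp22 the Nf1-KO libraries lay on both sides of the controls.

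Among 26 genes of the Schwann lineage, edgeR, limma voom and DESeq2 called none, and 2 had an unadjusted p under 0.05. S100b, a calcium-binding protein of Schwann cells, had the smallest p. It was at 4.25, 3.47 and 2.69 normalised CPM in controls and at 8.18, 7.52 and 7.32 in Nf1-KO, with no overlap (log2 1.15, SE 0.34, edgeR adjusted p = 0.479). Dhh, the Hedgehog ligand that Schwann cells release to form the perineurium, was at 1.7, 1.43 and 2.38 against 4.18, 2.66 and 3.66. Sox10, the transcription factor that defines the lineage, was at 7.36, 8.67 and 8 against 9.86, 10.9 and 8.54 and overlapped. In all, 4 were higher and 1 lower without overlap, and the median was 0.04. On log2 of group means the median was 0.03, and -0.01, -0.06 and -0.09 under the other 3 scalings, and without Nf1-KO replicate 3 there were 7 higher. Ngfr, the low-affinity neurotrophin receptor, was the lower member, at 11, 5.65 and 6.17 normalised CPM in controls and 4.98, 5.62 and 5.23 in Nf1-KO. The 20 axon and sensory neuron genes, of which Pvalb is also among the skeletal muscle markers, had 1 member higher without overlap, none lower, and a median of -0.30. Without control replicate 1 the median was 0.00, and without control replicate 3 it was -0.58, with 7 lower beside 4816 of all 23635 genes. Several members were at few counts: Scn11a, a sodium channel of pain fibres, was at 3.02, 1.43 and 0.244 normalised CPM in controls and at 0.622, 1.37 and 1.22 in Nf1-KO. The mean level of 1454 olfactory and vomeronasal receptor genes, which skin is not known to use, was 0.332, 0.263 and 0.0944 CPM per kb in controls and 0.131, 0.206 and 0.11 in Nf1-KO. Among the uninjured libraries it was lowest in control replicate 3, as Scn11a was, and its part in the list was not tested. The 20 neurotrophic and neurofibroma-linked factors had none higher and 2 lower, with a median of -0.18. Without control replicate 3 there were 8 lower, beside the same 4816 of all genes. Neither list had a call by edgeR, limma voom or DESeq2, or a member with an unadjusted p under 0.05.

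**Figure D2:**
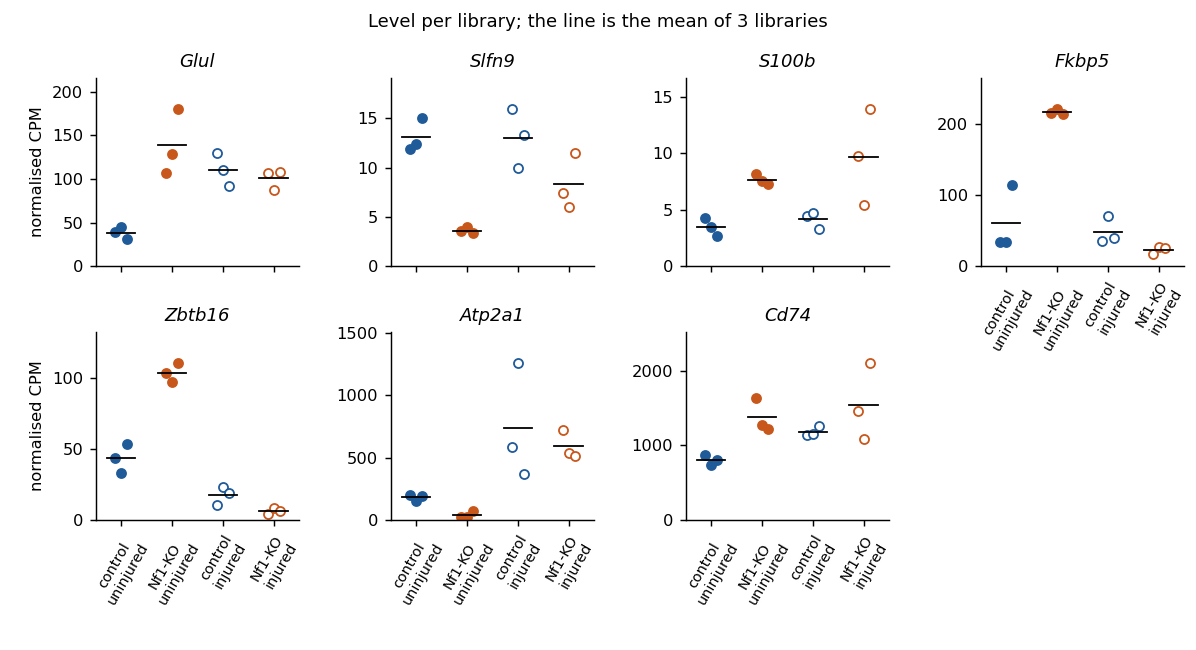
Normalised CPM of 7 genes in each of the 12 libraries, on linear axes from 0; filled points are uninjured and open points injured skin, blue is control and orange Nf1-KO, and the black line is the mean of 3 libraries. S100b was higher in Nf1-KO in both skin states, whereas Fkbp5 and Zbtb16 were higher in uninjured and lower in injured Nf1-KO skin.

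The lists of RAS regulators and of genes induced by ERK signalling were near the background. Of 28 RAS regulators, which include the GTPase-activating proteins, exchange factors and RAS genes themselves, none was called by edgeR, limma voom or DESeq2, and 4 had an unadjusted p under 0.05. Of the 28, 3 were higher and 3 lower without overlap, 10.7% each way, with a median of -0.11. Without control replicate 3, 7 were lower, beside 4816 of all 23635 genes. Sos2, an exchange factor that loads RAS with GTP, was at 42.7, 49.3 and 44.9 normalised CPM in controls and at 33.3, 39 and 31.4 in Nf1-KO (log2 -0.40, SE 0.16, edgeR adjusted p = 0.525). Of 22 genes that ERK signalling is known to induce, edgeR, limma voom and DESeq2 called none, 3 had an unadjusted p under 0.05, and for none did the groups separate. The median was -0.08, and up to 4 were higher (without control replicate 3) or 5 lower (without control replicate 1) once a library was left out. Dusp6, the phosphatase that switches ERK off and a usual readout of the pathway, was at 22.3, 34.7 and 41.9 normalised CPM in controls and at 24.8, 22.3 and 21.6 in Nf1-KO. The list is not complete for the pathway: Fos, Egr1 and Dusp1 were counted with the immediate early genes below. Of those 19 genes, 6 were lower and 5 higher without overlap, with Fos, Egr1 and Dusp1 among the lower. A difference in a small share of the cells may not be detectable in whole skin.

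Genes known to be induced by glucocorticoids had log2 differences above 0 for 14 of 16 tested members in uninjured Nf1-KO skin. Glucocorticoids act through a nuclear receptor that binds DNA, and Fkbp5, a co-chaperone of that receptor, and Zbtb16, a zinc finger repressor, are among its most responsive targets. Zbtb16, the member with the smallest p, was at 43.3, 33.3 and 53.5 normalised CPM in controls and at 103, 96.7 and 110 in Nf1-KO (log2 1.25, SE 0.27, edgeR adjusted p = 0.275). It passed the threshold in 5 of 15 alternatives, among them the uninjured libraries alone (edgeR adjusted p = 0.02). Fkbp5 was at 33.8, 34.1 and 114 in controls and at 216, 221 and 215 in Nf1-KO (log2 1.84, SE 0.44, edgeR adjusted p = 0.429). The 3 Nf1-KO libraries were close together, and control replicate 3 was the control nearest to them. Without that library the log2 difference of Fkbp5 was 2.71 and passed the threshold.

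Of the 16 glucocorticoid-responsive genes tested, edgeR and limma voom called none, and DESeq2 called Fkbp5 and Zbtb16. At an unadjusted p under 0.05 there were 6, all higher. The groups did not overlap for 7, all higher in Nf1-KO, 43.8% of the list beside 9.26% of all genes, and the median was 0.60. The others were Per1, Cdkn1a, Klf9, Mt1 and Ddit4, at log2 differences between 0.55 and 1.10. Mt1, a metallothionein that binds zinc, was at 302, 320 and 475 normalised CPM in controls and at 514, 484 and 1361 in Nf1-KO. Ddit4, an inhibitor of mTORC1, was at 26.6, 32 and 55.3 against 58.1, 58.2 and 82. Tsc22d3, the glucocorticoid-induced leucine zipper, overlapped at 333, 563 and 812 against 805, 994 and 887, and Sgk1, a kinase, at 132, 134 and 271 against 189, 174 and 258. Under every scaling tried 6 to 9 members were higher without overlap and at most 1 was lower. Without control replicate 3 the number higher was 11 and the median 0.78, and without Nf1-KO replicate 3 they were 8 and 0.48.

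**Figure D3:**
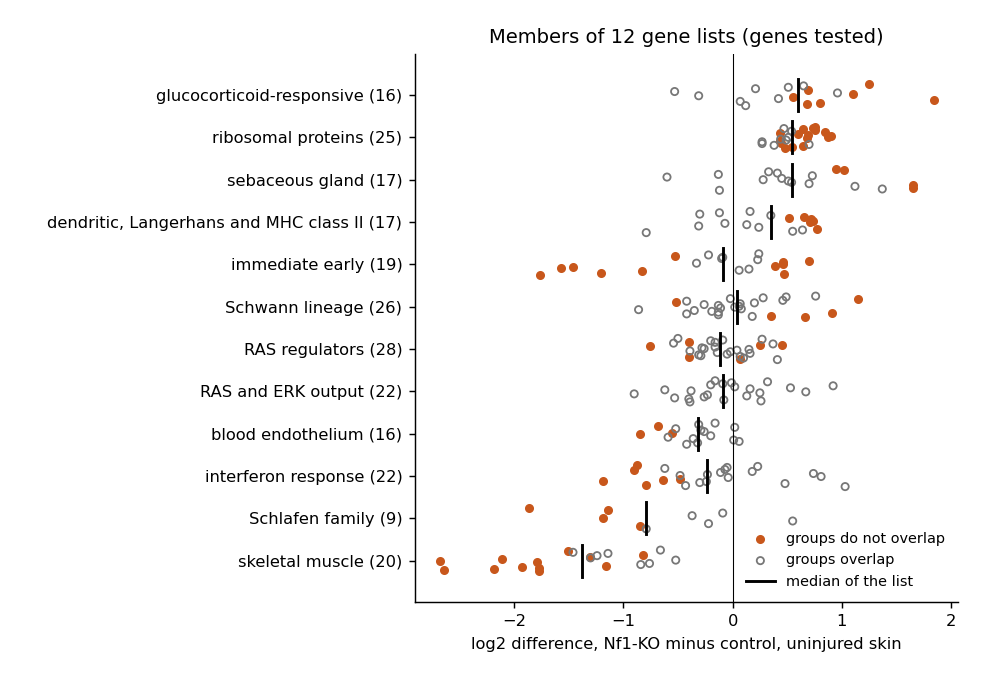
Log2 difference, Nf1-KO minus control, in uninjured skin for each tested member of 12 gene lists, with the number of members in brackets; orange points are genes whose groups of 3 libraries do not overlap, open points overlap, and the black bar is the list's median. Skeletal muscle lies lowest, with a median of -1.38, and the glucocorticoid-responsive genes highest, with 0.60.

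Skeletal muscle transcripts were lower in uninjured Nf1-KO skin. These come from the panniculus carnosus, the thin sheet of striated muscle beneath mouse skin. All 20 markers had a log2 difference below 0, with a median of -1.38, and 12 were lower without overlap (60% beside 6.05% of all genes). At an unadjusted p under 0.05 there were 8, edgeR and limma voom called none, and DESeq2 called Atp2a1. Atp2a1, the calcium pump of fast fibres, was at 199, 156 and 195 normalised CPM in controls and at 25.3, 23.7 and 72.8 in Nf1-KO (log2 -2.18, SE 0.49, edgeR adjusted p = 0.369), and without Nf1-KO replicate 3 its difference was -2.90 and passed the threshold. Acta1, skeletal actin, was at 331, 225 and 354 against 49.5, 41.9 and 175, and Myh4, the fast myosin heavy chain, at 115, 59.5 and 137 against 10.8, 3.42 and 34.6. Nf1-KO replicate 3 lay between the other Nf1-KO libraries and the controls for all 3 genes. The summed raw level of the 20 markers was 2032, 1238 and 1565 CPM in controls and 337, 273 and 836 CPM in Nf1-KO, and no marker was at 0. Without Nf1-KO replicate 3 the median was -2.48 and 19 were lower without overlap, and without Nf1-KO replicate 2 they were -1.12 and 12. In injured skin the median was -0.34 and none of the markers separated the genotypes. The part of muscle content in other differences was not tested.

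Genes of ribosomal proteins were higher in Nf1-KO skin by a small amount. All 25 had a log2 difference above 0, from 0.27 to 0.90, with a median of 0.54. For 16 the groups did not overlap (64% beside 9.26%), and 14 had an unadjusted p under 0.05, but edgeR, limma voom and DESeq2 called none. Rplp2, an acidic protein of the ribosomal stalk, was at 159, 130 and 156 normalised CPM in controls and at 204, 182 and 445 in Nf1-KO (log2 0.90, SE 0.36, edgeR adjusted p = 0.524). Rps14, of the small subunit, was at 439, 351 and 391 against 504, 473 and 933. Nf1-KO replicate 3 was the highest for every gene named here, and without it the median was 0.26, with 16 higher without overlap. Under other scalings 10 to 15 were apart. Transcript length moved with this result. With protein-coding genes ranked by exonic length and split into 4 bins of equal size, the shortest bin, up to 2620 bases, had a median of 0.19 and 17.3% higher without overlap, whereas the longest, from 6502 bases, had a median of -0.12 and 7.34%. Of the 25 ribosomal protein genes, 17 were in the shortest bin. The ribosomal RNA-like and mitochondrial shares given above were also higher in Nf1-KO, and their part in the result was not tested. Of 23 respiratory chain genes, which all 3 tools left uncalled, 4 had an unadjusted p under 0.05 and 2 were higher without overlap, with a median of 0.34. Without Nf1-KO replicate 3 the median was 0.07, with 2 higher and 3 lower, whereas 11 were higher without Nf1-KO replicate 2, 9 without control replicate 3 and 6 without control replicate 1. Of 8 mitochondrially encoded transcripts, 2 were higher without overlap, the median was 0.27, and DESeq2 alone called mt-Nd6, at 288, 330 and 315 normalised CPM in controls and 506, 495 and 691 in Nf1-KO (log2 0.86, SE 0.22, edgeR adjusted p = 0.396).

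Immune gene lists went different ways. The 17 genes of dendritic cells, Langerhans cells and MHC class II had no call by edgeR, limma voom or DESeq2, 7 with an unadjusted p under 0.05, all higher, and 6 higher without overlap (35.3%). All 6 belong to antigen presentation by MHC class II: H2-Aa, H2-Ab1, H2-Eb1, Cd74, H2-DMa and H2-DMb1, at log2 differences between 0.52 and 0.77. Cd74, the invariant chain, was at 868, 742 and 802 normalised CPM in controls and at 1636, 1272 and 1217 in Nf1-KO (log2 0.77, SE 0.25, edgeR adjusted p = 0.515). H2-DMa, which helps to load peptide, had the smallest p of the list and was at 38.4, 42.3 and 39.3 against 77.6, 68.5 and 51.6 (adjusted p = 0.479). Markers of the cells themselves overlapped. Cd207, langerin of Langerhans cells, was at 29.7, 33.6 and 35.6 against 55.4, 61.2 and 28.3, and Itgax, CD11c, at 5.57, 3.32 and 5.5 against 3.82, 4.03 and 3.83. The summed raw level of the list was 2531, 2062 and 2176 CPM in controls and 4003, 3222 and 2826 CPM in Nf1-KO. Of 17 macrophage genes, 2 were higher and 1 lower without overlap, with a median of 0.38, or 0.05 without Nf1-KO replicate 1, and without Nf1-KO replicate 2 there were 7 higher. Upper-quartile scaling gave 1 higher and 2 lower. All 3 tools called none, and 5 had an unadjusted p under 0.05. C1qa, of the first complement component, was at 5.38, 3.62 and 5.38 normalised CPM against 9.51, 5.77 and 10, and Lyz2, lysozyme, at 63.4, 62.3 and 65.3 against 93.8, 75.4 and 79.2. The lower member was Fcgr1, the high-affinity receptor for immunoglobulin G, at 1.7, 0.98 and 1.1 against 0.533, 0.38 and 0.697 (log2 -1.21, SE 0.51, edgeR adjusted p = 0.541).

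Of 22 interferon-response genes, edgeR, limma voom and DESeq2 called none, 2 had an unadjusted p under 0.05, 6 were lower without overlap (27.3% beside 6.05%) and none was higher, or 1 with upper-quartile scaling. The median was -0.24, and the members went both ways. It was -0.08 without Nf1-KO replicate 1, -0.10 without control replicate 1 and -0.42 without Nf1-KO replicate 3, each with 6 lower. Ifit2, which binds viral RNA, was at 6.89, 3.32 and 5.62 normalised CPM in controls and at 2.84, 2.66 and 1.39 in Nf1-KO (log2 -1.19, SE 0.49, edgeR adjusted p = 0.53). Usp18, which limits the receptor's signal, was at 21.7, 36.6 and 20.2 against 14.5, 16 and 12.3. Isg15, a ubiquitin-like protein, was at 5.76, 3.24 and 6.48 against 2.84, 5.55 and 18.8, so its highest library was Nf1-KO replicate 3.

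The immediate early genes split. Of 19 tested, 6 were lower and 5 higher without overlap (31.6% and 26.3%), with a median of -0.09, or 0.22 without control replicate 3. Neither edgeR nor limma voom called any, DESeq2 called Atf3, and 6 had an unadjusted p under 0.05, 3 each way. Atf3, a stress-induced factor, was at 15.8, 27 and 14.2 normalised CPM in controls and at 3.91, 8.36 and 4.44 in Nf1-KO (log2 -1.76, SE 0.48, edgeR adjusted p = 0.438). It passed the threshold in 3 of 15 alternatives, among them the uninjured libraries alone (edgeR adjusted p = 0.0322). Fos was at 46, 69.8 and 38.1 against 14.4, 21.6 and 15.6, Egr1 at 84.8, 99.5 and 66.7 against 43, 48.2 and 49.7, and Dusp1, a phosphatase of MAP kinases, at 244, 219 and 137 against 73, 109 and 79.4. The higher members were Fosl2, Junb, Jund, Ier2 and Btg2, at log2 differences between 0.39 and 0.70. Jund was at 108, 132 and 163 normalised CPM against 200, 174 and 280. Of 14 heat shock genes, 4 were higher without overlap and none lower under the main scaling, with a median of 0.14. Without control replicate 1 there were 4 higher and 3 lower, with a median of -0.03, and upper-quartile scaling left 1 higher. All 3 tools called none, and 2 had an unadjusted p under 0.05. Hspa1a and Hspa1b, the inducible members, overlapped, at log2 differences of -0.14 and -0.13.

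Among skin appendages, the sebaceous gland list had 4 of 17 members higher without overlap (23.5%), none lower, 6 with an unadjusted p under 0.05 and a median of 0.54. Neither edgeR nor limma voom called any, and DESeq2 called Dgat2l6. Without control replicate 3 there were 9 higher without overlap, and without Nf1-KO replicate 2 there were 10, while without control replicate 2 there were 4 and the median was 0.40. Dgat2l6, an acyltransferase of sebum lipid synthesis, was at 2.36, 3.17 and 5.62 normalised CPM in controls and at 15.2, 7.29 and 13.2 in Nf1-KO (log2 1.65, SE 0.35, edgeR adjusted p = 0.22). Awat2, a wax synthase, was at 16.3, 6.86 and 19.2 against 59, 30.7 and 43.5, whereas Scd1, a desaturase, overlapped at 393, 403 and 675 against 719, 447 and 687. Of 16 blood endothelial genes, 3 were lower without overlap, Pecam1, Kdr and Tek, with a median of -0.32. Without Nf1-KO replicate 1 there were 9 lower and the median was -0.59, whereas it was -0.06 without control replicate 1 and -0.14 without Nf1-KO replicate 3, each with 3 lower. All 3 tools called none, and 4 had an unadjusted p under 0.05. Kdr, the main VEGF receptor, was at 11, 11.2 and 11.1 normalised CPM against 6.58, 7.07 and 4.79 (log2 -0.85, SE 0.24, edgeR adjusted p = 0.429).

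The other 23 lists cover the remaining cell types of skin and blood, nerve sheath, matrix, cytokines, cholesterol synthesis, WNT signalling, the circadian clock, the cell cycle and sex markers. They held 396 members, counting a gene once for each list. Of these edgeR and limma voom called none, DESeq2 called Dct, of melanin synthesis, and Il33, an alarmin of keratinocytes, and 32 had an unadjusted p under 0.05. Pooled over these lists, 4.8% were higher and 5.56% lower without overlap, and the medians lay between -0.43 and 0.38. Single lists departed from the pooled shares. Of 19 circadian clock genes, 4 were higher (21.1%), Per1, Per3, Ciart and Bhlhe41, and 1 lower, Nr1d2, with a median of 0.02. With upper-quartile or total-count scaling 2 were higher and 2 lower. Per1 is also counted with the glucocorticoid-responsive genes. Of 16 smooth muscle and pericyte genes, 3 were lower (18.8%), Cnn1, Des and Synpo2, with a median of -0.36, and 9 were lower without Nf1-KO replicate 1. Des is also among the skeletal muscle markers. Of 22 cell cycle genes, 3 were higher (13.6%), Plk1, Aurkb and Birc5, with a median of 0.19. Without control replicate 3, 10 were higher, beside 3990 of all 23635 genes. The T and natural killer cell, cytokine and chemokine, and differentiating keratinocyte lists had 3 lower and 1 higher each, of 19, 23 and 25 genes.

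Keratins and cornified-envelope genes known to be switched on in wounded epidermis were high in a single uninjured library of each genotype. Krt6b, a keratin of activated keratinocytes, was at 0.378, 0.904 and 151 normalised CPM in controls and at 0.444, 0.912 and 171 in Nf1-KO. Krt16, a type I keratin of the same state, was at 3.49, 3.62 and 282 against 6.84, 3.57 and 366. Control replicate 3 and Nf1-KO replicate 3, the libraries that stood apart on the principal components, were the high ones. The summed raw level of the 21 markers was 1181, 1295 and 2449 CPM in controls and 1359, 1329 and 3328 CPM in Nf1-KO. The list had none higher and 1 lower without overlap and a median of 0.38, which was 3.12 without control replicate 3 and -2.69, with 7 lower, without Nf1-KO replicate 3. The growing hair follicle list, with a median of 0.26 over 26 genes, likewise went to -0.36 with 6 lower without Nf1-KO replicate 3. The part of this state in other differences was not tested.

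The injured libraries offer the same genotypes in other mice and share no library with the uninjured comparison. All 6 carried Xist, between 436 and 627 raw CPM, and almost no Ddx3y, so that skin state and sex cannot be told apart. Their mean level of olfactory and vomeronasal receptor genes was 0.00224 to 0.0531 CPM per kb, beside 0.0944 to 0.332 in uninjured libraries. Its part in the values of genes at few counts was not tested. In injured skin edgeR called no gene for genotype (smallest adjusted p = 0.0523) with 2410 at an unadjusted p under 0.05. There, 1179 genes were higher (4.99%) and 1086 lower (4.59%) without overlap. The test of the difference between both genotype effects called none (smallest adjusted p = 0.0902, with 2661 genes at an unadjusted p under 0.05). Of the 2189 genes higher without overlap in uninjured skin, 3.11% were also higher and 5.16% were lower without overlap in injured skin. Of the 1429 that were lower, 5.67% were also lower and 3.92% were higher. Over all genes these shares in injured skin were 4.99% higher and 4.59% lower.

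For the genes named here the injured values went several ways. Glul was at 130, 110 and 91.6 normalised CPM in injured controls and at 107, 87.9 and 108 in injured Nf1-KO, so that the uninjured controls were the libraries with the lowest values. The effects of genotype on Glul differed by 1.98 on the log2 scale between the states (edgeR adjusted p = 0.091). Zbtb16 was at 10.5, 23.4 and 19 in injured controls and at 4.51, 8.74 and 6.16 in injured Nf1-KO, the opposite direction to uninjured skin with no overlap, and the effects differed by 2.70 (adjusted p = 0.0902). Fkbp5 likewise was at 35.9, 70.8 and 39.3 against 17.2, 26.6 and 25, a difference of effects of 2.93 (adjusted p = 0.431). The glucocorticoid-responsive list had a median of -0.28 in injured skin, with none higher and 2 lower without overlap. Slfn9 was at 15.9, 9.91 and 13.3 in injured controls and at 7.4, 6.01 and 11.5 in injured Nf1-KO (log2 -0.65) and overlapped. The 9 Schlafen genes had a median of 0.48 in injured skin, the opposite direction to uninjured skin, with none higher or lower without overlap. Myelin genes had a median of 0.40 in injured skin, with 6 of 20 higher without overlap.

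**Figure D4:**
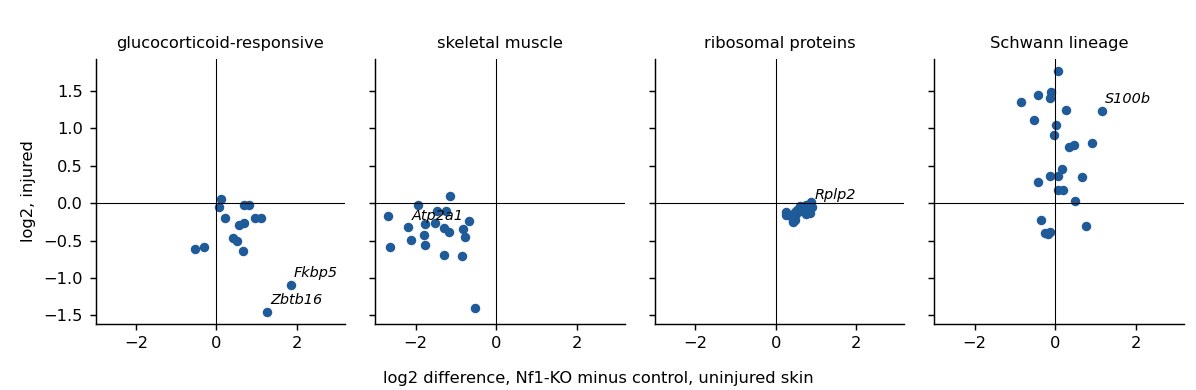
Log2 difference, Nf1-KO minus control, in uninjured skin (horizontal) and injured skin (vertical) for the tested members of 4 gene lists; each point is a gene. Fkbp5 and Zbtb16 lie to the right and below 0, S100b lies above 0 on both axes, and the ribosomal protein genes lie to the right of 0 and close to 0 in injured skin.

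With genotype averaged over both skin states, edgeR called no gene, and 2083 had an unadjusted p under 0.05. Among the genes at the smallest adjusted p, 0.0745, were Mndal, Slfn9, Srp9, Gm8210 and Tspan8, of which Mndal, Srp9 and Gm8210 are on chromosome 1. Gm8210 stood out in the uninjured controls alone, as given above, and the assignment of its reads is uncertain. Mndal, an interferon-inducible DNA-binding protein of the Ifi200 cluster, was at 0.755, 0.528 and 0.611 normalised CPM in uninjured controls and at 2.84, 6.08 and 3.22 in uninjured Nf1-KO. Srp9, a subunit of the signal recognition particle, was at 28.7, 22.1 and 23 against 46.7, 48.9 and 53 (log2 1.01, SE 0.16, edgeR adjusted p = 0.0516). Both were also apart in injured skin, at log2 differences of 1.89 and 0.37.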

How the data were processed

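RNA from whole skin was amplified with Smart-Seq V4 and made into libraries with Nextera XT, per the labels' protocols, a route that does not mark strand. The submitters' processing notes name STAR 2.5.2b, SAMtools, HTSeq 0.5.3, DESeq2, HOMER and mm10, without their roles. The deposited values are raw counts per gene, made by the authors. Each sample's column was read from its own file, and 1 column of no listed sample was not used. Of 53379 gene identifiers, 53274 matched GENCODE M21 and 105 did not. The members and gene lists were chosen with earlier results of these data known.

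The main test was edgeR 4.0.16 (R 4.3.3), quasi-likelihood with robust dispersion, on all 12 libraries with 4 group means, TMM scaling and a count minimum of 10, with Benjamini-Hochberg adjustment over 23635 genes and calls at an adjusted p under 0.05. Normalised CPM are TMM-scaled. Groups do not overlap where all 3 libraries of a group lie above all 3 of the other. Lists are described by counts and medians. The text names called genes of at least 1 CPM without overlap, called list members, a list's member with the smallest p, Nf1 and Prss56. Other genes were named after their values were seen. Alternatives were other scalings, filters and tools (limma voom 3.58.1, DESeq2 1.42.0), the uninjured libraries alone, a replicate block and each uninjured library left out. A covariate for ribosomal RNA-like counts, and the lists under other scalings and without each library, were chosen after seeing the data. The pipeline was tested on simulated data. Counts of 8817013 to 15521143 per uninjured library and 3 libraries per group limit precision.
Some genes are not reported here.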

Additional observations from a re-analysis of the deposited data

How the results depend on the processing

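The number of genes called depended strongly on the fit. Against 4 in all (3 higher, 1 lower), upper-quartile scaling gave 2 (0 lower), the stricter filter of 2 CPM in 3 libraries 1 (1 higher, 0 lower), limma voom 2 (1 higher), DESeq2 60 (35 higher, 25 lower), the uninjured libraries alone 27 (19 higher, 8 lower), no filter 219 (170 higher, 49 lower), and the ribosomal RNA-like covariate 8 (7 higher). Median-of-ratios scaling gave 4. Leaving out each uninjured library gave 0 to 6 in all, 0 to 4 higher and 0 to 2 lower, with 0 without control replicate 1, 1 without control replicate 2 or 3 and 2 without Nf1-KO replicate 2. The fits differ in the libraries and genes that enter. The stricter filter left 16778 genes, the uninjured libraries alone 21890 and no filter 49676. The spread of counts between libraries of a group, as chi-square per degree of freedom, was 9.55 to 33.8 for uninjured pairs. For injured pairs, which enter the main fit, it was 30.6 to 87.8. The cause of the differing numbers of calls was not tested. The replicate block called 23 (18 higher, 5 lower). The labels' replicate numbers were not taken as pairing, since deviations of same-numbered libraries correlated at -0.05, 0.46 and 0.20, and control 1 correlated best with Nf1-KO 2, at 0.05.

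All 418 values recomputed for 28 genes, some of them not reported here, kept their direction. Most of these genes were chosen from the same libraries for a call, a small p or groups without overlap. A reversal was therefore unlikely in advance, and the kept direction is no separate evidence. Glul passed the threshold in 13 of 15 alternatives (log2 1.62 to 1.99), Gm8210 in 10 of 14, Mir8114 in 7 of 15 and Slfn9 in 6. Of genes named in the text but not called in the main fit, Zbtb16 passed most often, in 5 of 15. Mndal, Srp9 and Gm7049 passed in 4, and Teddm2, Atf3 and Fkbp5 in 3. The uninjured libraries alone were among these alternatives for each gene except Fkbp5. With 3 libraries per group, differences within the spread between libraries of a group may not have been detected.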

Other observations

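A stretch of chromosome 1 was looked at after the values were seen. Genes were counted whose groups did not overlap in the same direction in both uninjured and injured skin, which were 149 of the 23635 tested (0.63%). In windows of 20 Mb with at least 100 genes tested, of which there were 101, the highest share was 9 of 271 genes (3.32%), from 160 to 180 Mb on chromosome 1, and the next was 3 of 110 (2.73%). The 9 genes included Mndal, Dcaf6, Usf1, Pex19 and Atp1a4. Atp1a4, a sodium pump subunit best known from sperm, was at 1.51, 1.13 and 0.55 normalised CPM in uninjured controls and at 0.178, 0.38 and 0.348 in uninjured Nf1-KO, and at 2.45, 1.54 and 1.48 against 0.135, 0.0683 and 0.48 in injured skin. Pex19, a peroxisome import factor, was at 49.3, 48.7 and 54.2 against 71.6, 64.1 and 72.2 in uninjured skin. The strain of both genotypes is labelled as mixed, and genotypes along chromosome 1 were not tested.

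The processed pseudogene Gm7049 on chromosome 13 was at 0.85, 0.904 and 0.794 normalised CPM in uninjured controls and at 8.35, 8.96 and 2.35 in uninjured Nf1-KO (log2 2.94, edgeR adjusted p = 0.0895). Its transcript aligned to that of Me1, malic enzyme, at 98.4% identity, and Me1 was at 274, 307 and 272 against 244, 242 and 175.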
